A study of Mus musculus with 2 samples.

Results

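Srxn1, Gclc, Gclm, Nqo1, Txnrd1, Slc7a11, Hmox1, Gsr, Prdx1 and Abcc1 are genes that the transcription factor NRF2 switches on to make glutathione and to keep cellular thiols reduced. They were followed in Ly6C-high inflammatory monocytes from the colon lamina propria, on 1 Affymetrix array of wild-type (WT) mice and 1 array of Nlrp6-/- mice, which lack the NOD-like receptor NLRP6. The 10 genes were listed with the WT and Nlrp6-/- levels of these same arrays in view, so every value below is a description of the 2 arrays and carries no error, test or p-value. Each gene was read from its single-symbol probe set, or from the one with the highest mean where there were several, among 22184 genes named in that way. This gave a value for 9 of the 10. Prdx1 had no probe set of its own.

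Mice of both groups were C57BL/6 by strain label. Both groups were injected into the abdomen with 10 mg/kg of AOM (azoxymethane), which starts colon tumours. From day 5 they were given 2% DSS (dextran sodium sulfate), an agent that damages the gut lining, for 5 days. Cells were taken on day 10 and sorted as CD11b-positive, Ly6C-high, CD3-negative and Ly6G-negative. The labels do not say how many mice gave each RNA, whether the WT mice were littermates of the Nlrp6-/- mice, or how the Nlrp6 allele was made. No untreated group is analysed here.

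NRF2, encoded by Nfe2l2, is held in the cytoplasm by KEAP1, which hands it to a CUL3 ubiquitin ligase for degradation. Electrophiles and oxidants modify KEAP1, NRF2 then accumulates, pairs with a small MAF protein and binds antioxidant response elements near its target genes, where BACH1 can compete as a repressor. In phagocytes the pathway is known for raising the capacity to withstand the oxidants that these cells themselves produce.

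The promoters of members with an entry in the RefSeq table (mouse build GRCm38.p6, 250 bases before to 50 after an annotated start) show which of them carry the element close to the start. An entry was found for 6 of the 10 genes: Srxn1, Gclm, Nqo1, Txnrd1 (3 starts), Slc7a11 and Prdx1. The 250 bases before the start are given, 5′ to 3′ on the gene's own strand, for Srxn1 and Nqo1, both at least 2-fold lower in Nlrp6-/-, and for Gclm and the second Txnrd1 start, each with a match before the start. Capitals mark matches on either strand to the element's core, TGACNNNGC, or to the AP-1-type element TGANTCA, which the core can overlap.
Srxn1, chr2:152105274-152105523, plus strand: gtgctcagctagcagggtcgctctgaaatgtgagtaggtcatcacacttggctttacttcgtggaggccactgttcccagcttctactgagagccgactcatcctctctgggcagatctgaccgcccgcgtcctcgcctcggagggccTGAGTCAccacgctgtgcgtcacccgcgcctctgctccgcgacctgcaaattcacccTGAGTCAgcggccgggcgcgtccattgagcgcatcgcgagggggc
Nqo1, chr8:107403206-107403455, minus strand: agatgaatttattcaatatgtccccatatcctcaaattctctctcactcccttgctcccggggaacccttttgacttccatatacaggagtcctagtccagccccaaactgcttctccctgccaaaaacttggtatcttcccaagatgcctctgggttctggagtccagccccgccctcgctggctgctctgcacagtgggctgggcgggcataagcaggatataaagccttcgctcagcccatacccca
Gclm, chr3:122245307-122245556, plus strand: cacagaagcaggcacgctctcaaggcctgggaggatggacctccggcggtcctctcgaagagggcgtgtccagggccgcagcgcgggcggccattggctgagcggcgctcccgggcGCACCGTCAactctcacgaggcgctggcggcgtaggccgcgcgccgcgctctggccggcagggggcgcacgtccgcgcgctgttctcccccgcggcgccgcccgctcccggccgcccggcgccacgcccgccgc
Txnrd1, chr10:82858956-82859205, plus strand: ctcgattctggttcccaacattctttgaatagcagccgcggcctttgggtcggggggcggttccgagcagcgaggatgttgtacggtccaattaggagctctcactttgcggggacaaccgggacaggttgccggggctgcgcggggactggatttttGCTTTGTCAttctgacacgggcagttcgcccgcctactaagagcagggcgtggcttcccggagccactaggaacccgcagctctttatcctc

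The core TGACNNNGC was present in 4 of the 6 member genes with an entry, Srxn1, Gclm, Txnrd1 and Prdx1, against 14% of the 27025 genes in the table. By window, 4 of 8 member windows held it, against 12.4% of all 32851 windows of that length. The Srxn1 match, read as TGACCTAGC on the other strand, began 28 bases after the start and so lies outside the printed stretch. Srxn1 also had a pair of AP-1-type elements, at 102 and 45 bases before the start, and the nearer one runs on into GC. In Gclm the match read TGACGGTGC at 134 bases before the start, and in Txnrd1 TGACAAAGC at 92 bases before. Prdx1 carried TGACTCAGC at 133 bases before the start, where core and AP-1-type element overlap, and an AP-1-type element at 237 bases before. The AP-1-type element was found in 2 of the 6 member genes, Srxn1 and Prdx1, against 8.97% of all genes. Neither motif was in the Nqo1 or Slc7a11 window, which says only that these letters are not within those bases. A match is a description of sequence and not a bound site.

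**Figure D1:**
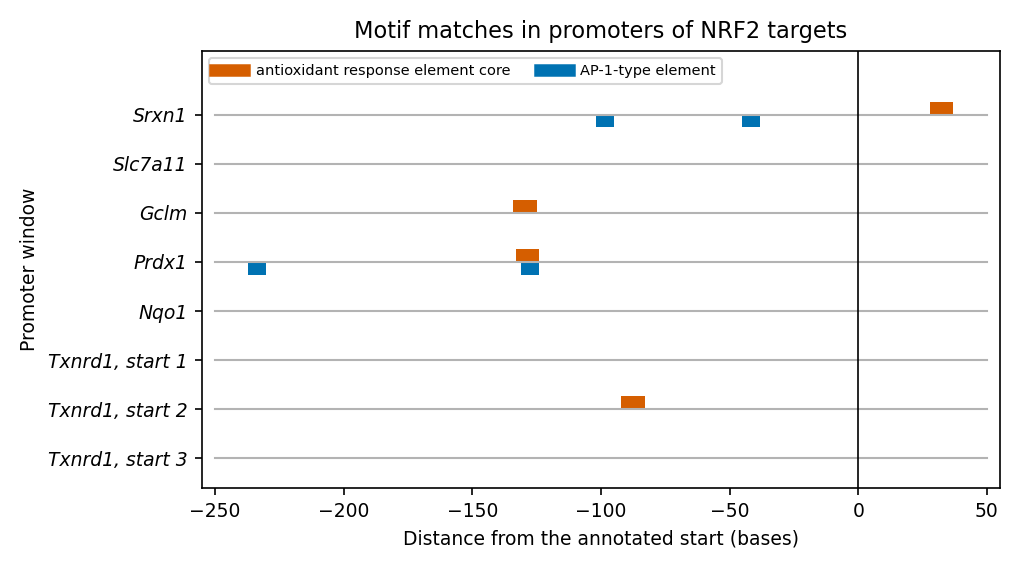
Matches to the antioxidant response element core (orange) and to the AP-1-type element (blue) in the 8 promoter windows of the 6 members with an entry, by distance in bases from the annotated start, with negative values before it. The core is marked in Srxn1, Gclm, Prdx1 and the second of the 3 Txnrd1 starts (numbered along the chromosome), and neither motif in Slc7a11 or Nqo1.

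All 9 measured members were lower on the Nlrp6-/- array than on the WT array. Levels are log2 values from robust multiarray average (RMA), differences are Nlrp6-/- minus WT on that log2 scale, and a percentage of WT is the same difference turned back to the linear scale. The median difference of the 9 was -0.65, which places the Nlrp6-/- level at 63.6% of WT, and the differences ran from -1.36 to -0.36. Of the 9537 genes above the detection floor on at least 1 array, 48.3% were lower in Nlrp6-/- by any amount, and their median difference was 0.00. The floor, set from olfactory and vomeronasal receptor genes, was 3.26 in WT and 3.22 in Nlrp6-/-, and all 9 members lay above it on both arrays. At least 2-fold lower were 3 members, Srxn1, Gclc and Nqo1, where 0.325% of all measured genes were. At least 1.5-fold lower were 6, with Abcc1, Txnrd1 and Gclm added, where 3.05% of all measured genes were. Since the members were chosen with these differences known, nothing is read from these counts. No member was higher at either fold, where 1.61% of all measured genes were at least 2-fold higher.

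**Figure D2:**
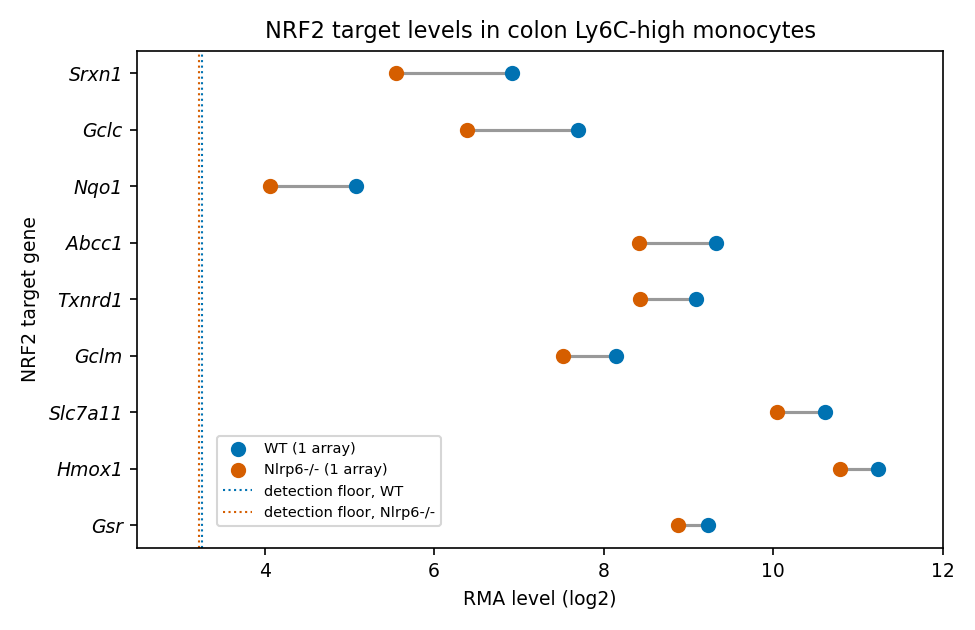
RMA levels (log2) of the 9 measured NRF2 targets on the WT array (blue) and the Nlrp6-/- array (orange), ordered by difference, with the detection floor of each array as a dotted line. Each point is 1 array, and every orange point lies left of its blue partner, from Srxn1 at 6.91 and 5.55 to Gsr at 9.23 and 8.87.

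Glutathione is made from glutamate, cysteine and glycine, and the first step is carried out by glutamate-cysteine ligase. Gclc, its catalytic subunit, was at 7.70 on the WT array against 6.39 on the Nlrp6-/- array, a difference of -1.31, or 40.3% of WT. Gclm, the modifier subunit that makes the enzyme more efficient, was at 8.15 and 7.52, a difference of -0.63, or 64.6% of WT. Both subunits of this enzyme were thus lower, the catalytic one by more. Slc7a11 encodes xCT, the transporter that brings in cystine in exchange for glutamate and so supplies the cysteine. Its brighter probe set was at 10.61 on the WT array against 10.04 on the Nlrp6-/- array, a difference of -0.57, and its other probe set was at 10.33 and 9.66, a difference of -0.67. The probe sets for xCT had the same sign and lay to either side of the 1.5-fold line, which is 0.58 on the log2 scale. Gsr, glutathione reductase, which returns oxidised glutathione to its reduced form, had the smallest difference of the 9, at 9.23 and 8.87, or -0.36.

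Abcc1 encodes MRP1, an export pump that carries glutathione conjugates and oxidised glutathione out of the cell. It was at 9.33 on the WT array against 8.41 on the Nlrp6-/- array, a difference of -0.91, or 53.0% of WT. The export pump thus had nearly 2-fold less signal in Nlrp6-/-.

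The thioredoxin branch repairs oxidised proteins in parallel with glutathione. Srxn1, sulfiredoxin, reactivates peroxiredoxins whose active cysteine has been over-oxidised. It was at 6.91 on the WT array against 5.55 on the Nlrp6-/- array, a difference of -1.36, or 38.9% of WT, and was the third lowest of all measured genes. Txnrd1, the cytosolic thioredoxin reductase, which draws on NADPH to reduce thioredoxin, was at 9.08 and 8.43, a difference of -0.65. So both members of this branch with a value were lower, Srxn1 among the most extreme genes of the comparison. The other measured genes of the branch, given further on, were higher or level.

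Prdx1, the cytosolic peroxiredoxin that removes hydrogen peroxide and is a substrate of sulfiredoxin, is listed in the platform annotation only on 3 probe sets that it shares with other genes, Gm21399 on all 3 and AV051173 on 1 of them. No level is therefore given for Prdx1. The shared probe sets, assigned here to no gene, differed by -1.42, -0.84 and -0.27, a spread wider than the 90th percentile of disagreement between probe sets of 1 gene, which was 0.79.

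Nqo1 and Hmox1 act on quinones and heme. Nqo1, a quinone reductase that is widely used as a readout of NRF2, was at 5.08 on the WT array against 4.07 on the Nlrp6-/- array, a difference of -1.01, or 49.7% of WT. It was the dimmest member, 0.85 above the floor in Nlrp6-/-. With the floor raised to the 99th percentile of the receptor genes, its Nlrp6-/- level lay below the floor and it was lower only by a bound of -0.18, which ends its place among the 2-fold lower genes. Subtracting the median difference of all probe sets ended it as well, at -0.99. Hmox1, heme oxygenase, which splits heme into biliverdin, iron and carbon monoxide, was bright on both arrays, at 11.24 and 10.79, a difference of -0.45, or 73.3% of WT.

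**Figure D3:**
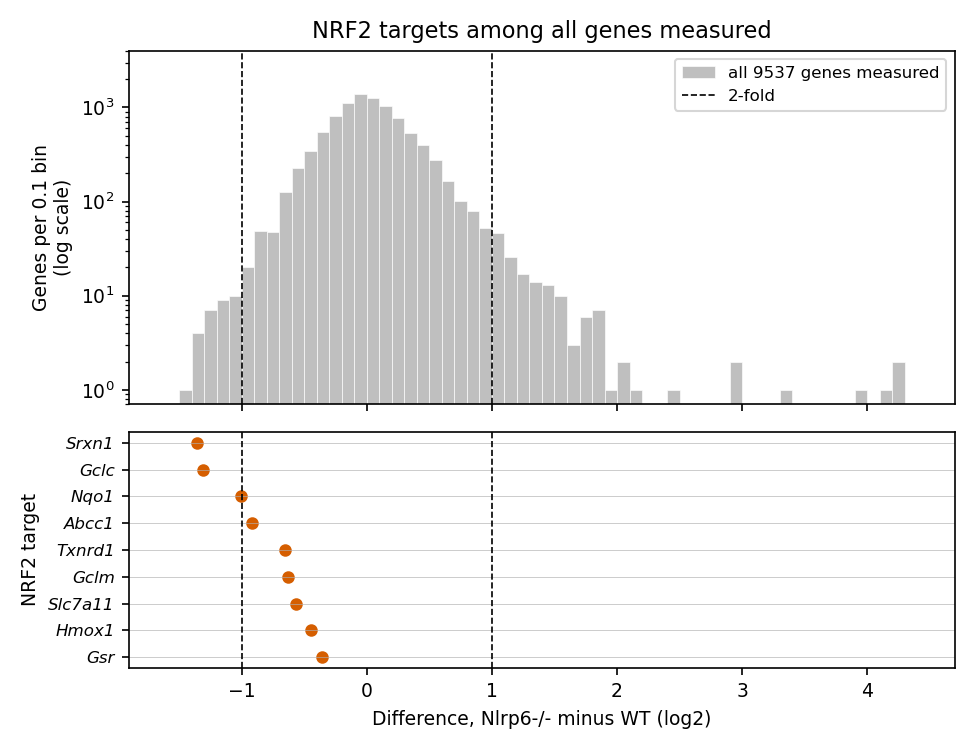
Top, number of genes (log scale) per 0.1 of the log2 difference Nlrp6-/- minus WT, for all 9537 genes measured, with dashed lines at 2-fold; bottom, the differences of the 9 NRF2 targets on the same axis. The members run from -1.36 (Srxn1) to -0.36 (Gsr), all left of 0 and 3 of them at or past the 2-fold line.

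Placed among all 9537 measured genes from the lowest difference upwards, Srxn1 was at position 3, Gclc at 5, Nqo1 at 30 and Abcc1 at 49. So 4 members were among the 50 lowest genes, and position 49 marks the lowest 0.514% of all measured genes. Txnrd1 followed at 198, Gclm at 226, Slc7a11 at 332, Hmox1 at 657 and Gsr at 1064. Gsr, the last of them, was within the lowest 11.2% of genes. Since the members were chosen with these differences known, nothing is read from their positions. The members thus spanned 1.00 on the log2 scale among themselves. Without replicates, only values within the arrays are at hand, and they do not measure the spread between RNA samples. The 1395 receptor genes, with no known use in monocytes, had differences with an SD of 0.19. Most of them lay below the floor, unlike the members. Probe sets of the same gene disagreed by a median of 0.31 over 422 genes. The difference of Gsr exceeded that median by little, and neighbours in the order such as Txnrd1 and Gclm lay closer together than it.

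Of 13 listed regulators of NRF2, 12 had a probe set, and 10 of the 12 were lower, where 48.3% of all measured genes were. None of the 12 reached 1.5-fold, where 3.05% of all measured genes were that much lower and 6.21% higher. The median difference of the 12 was -0.18, and several lay near 0. That median was smaller in size than the SD of the receptor genes' differences, 0.19. It moved to -0.38 with the floor at the receptor genes' 99th percentile, so no direction is read for the list. Nfe2l2 itself, whose protein is controlled mainly by degradation, was at 9.86 on the WT array against 9.83 on the Nlrp6-/- array. Keap1, its inhibitor, was at 3.61 and 3.74, close to the floor on both arrays. The ligase scaffold Cul3 was at 8.59 and 8.34. Of the small MAF partners, Mafg was at 5.70 and 5.14, a difference of -0.56, Mafk differed by -0.09, and Maff by 0.44 in the other direction. The repressor Bach1 was at 6.74 and 6.19, a difference of -0.55, and its relative Bach2 at 4.33 and 4.31. Sqstm1, an autophagy receptor that sequesters KEAP1 and is also an NRF2 target, was at 10.35 and 9.97, a difference of -0.38. The related factor Nfe2l1 differed by -0.39, and Btrc and Gsk3b, which take part in a KEAP1-independent route of NRF2 degradation, by -0.11 and -0.28.

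The genes around glutathione went in both directions. In the list for glutathione synthesis and cysteine supply, 5 of 11 genes were measured, with a median of -0.13. Of these, 3 were lower, where 48.3% of all measured genes were. Gss, glutathione synthetase, which completes the molecule, was at 5.60 on the WT array against 4.82 on the Nlrp6-/- array, a difference of -0.79. Slc3a2, the heavy chain that carries xCT to the membrane, differed by -0.29. Dpep2, a dipeptidase, was higher by 0.50 and Chac2, a glutathione-degrading enzyme, by 0.20. Of the genes that use glutathione, 20 of 25 were measured, 13 higher and 7 lower, where 50.7% of all measured genes were higher. Their median of 0.12 was smaller than the SD of the receptor genes' differences, 0.19. Raising the floor to the receptor genes' 99th percentile brought this median to 0, so no direction is read for the list. None of the 20 was 1.5-fold lower, and 2 were 1.5-fold higher, where 6.21% of all measured genes were: Mgst3, a microsomal glutathione transferase, by 0.73, and the glyoxalase Glo1 by 0.65. Gsto1 was higher by 0.47 and Glrx2, a mitochondrial glutaredoxin, by 0.42.

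None of the measured thioredoxin and peroxiredoxin genes other than the members was lower in Nlrp6-/-. All 9 measured of 13 listed were higher or level, with a median of 0.17 and differences from 0.01 to 0.83. That median was smaller than the SD of the receptor genes' differences, 0.19. It fell to 0.04 with the floor at the receptor genes' 99th percentile, so no direction is read for the list. Of all measured genes, 50.7% were higher by any amount. Prdx4, the peroxiredoxin of the endoplasmic reticulum, was at 4.21 on the WT array against 5.04 on the Nlrp6-/- array, a difference of 0.83, and Prdx3, the mitochondrial one, was higher by 0.51. Msrb1, a methionine sulfoxide reductase, was higher by 0.52 and Txnip, which binds thioredoxin, by 0.25. Among enzymes that remove superoxide and peroxide, Cat, catalase, was at 6.05 and 5.22, a difference of -0.83, while Sod1 and Sod2 were at differences of 0.00 and -0.04. Sod3, below the floor in WT, was higher by a bound of 0.10. The median of these 4 was -0.02.

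Reduction by Gsr, Txnrd1 and Nqo1 is paid for in NADPH. Pgd, the second dehydrogenase of the pentose phosphate pathway and an NRF2 target, was at 9.24 on the WT array against 8.16 on the Nlrp6-/- array, a difference of -1.08, or 47.4% of WT. Taldo1, of the same pathway, differed by -0.40 and Idh1, the cytosolic isocitrate dehydrogenase, by -0.27, while Idh2, the mitochondrial one, was higher by 0.68. Of the 8 measured genes of NADPH supply among 11 listed, 5 were lower, where 48.3% of all measured genes were. Their median was -0.12, and Pgd was the only one at 2-fold, where 0.325% of all measured genes were at least 2-fold lower. G6pdx and Tkt were not analysed here.

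Other known NRF2 targets, listed apart from the members, were lower in 8 of 10 measured genes of 16, with a median of -0.25. Of all measured genes, 48.3% were lower by any amount. At least 1.5-fold lower were 4, against 3.05% of all measured genes, and 2 of these were at least 2-fold lower, against 0.325%. Slc48a1, a heme transporter, was at 6.63 and 5.20, a difference of -1.44, the lowest of all measured genes. Blvrb, a biliverdin and flavin reductase, differed by -1.18, and Ptgr1, prostaglandin reductase, by -0.99, just short of 2-fold. Cbr1, a carbonyl reductase, was higher by 0.81. These genes were chosen with earlier results from these arrays known, so their lower levels are not independent of the members'.

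Slc7a11 also answers to ATF4, the factor of the amino acid response. In the list of other ATF4 targets, which also holds Atf4 itself, 12 of 15 measured genes of 16 were higher by any amount. The list median was 0.25, and 3 genes were at least 1.5-fold higher. Of all measured genes, 50.7% were higher by any amount and 6.21% at least 1.5-fold higher. With the floor at the receptor genes' 99th percentile the list median was 0.14. Slc7a5, an amino acid transporter that shares the heavy chain Slc3a2 with xCT, was at 5.94 on the WT array against 7.11 on the Nlrp6-/- array, a difference of 1.17. Chac1, another glutathione-degrading enzyme, was higher by 0.78, Shmt2 of mitochondrial one-carbon metabolism by 0.60, and the proline synthesis enzyme Aldh18a1 by 0.45. Slc7a11 was at -0.57, and the part of ATF4 in its level was not tested. Among relatives of Abcc1, 3 of 9 were measured and all 3 were lower, where 48.3% of all measured genes were. They were Abcc5 at -0.71, Abcc4 at -0.40, and Abcc9, below the floor in Nlrp6-/-, at a bound of -0.05.

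**Figure D4:**
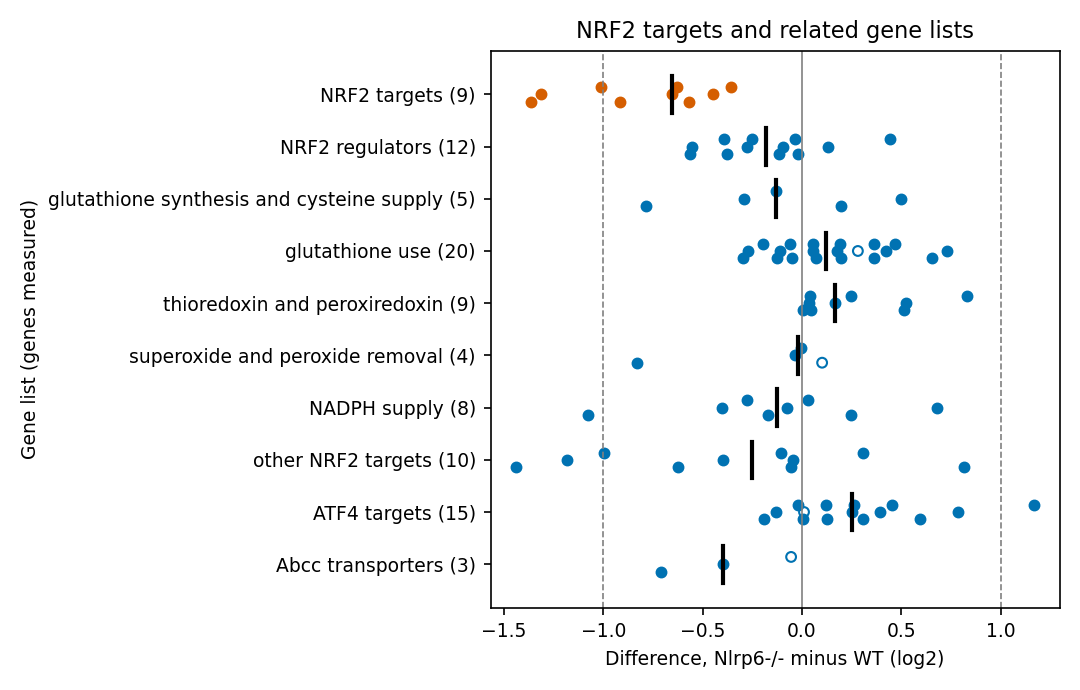
Difference Nlrp6-/- minus WT (log2) for each measured gene of the NRF2 targets (orange) and of 9 related lists (blue), with the number of genes measured in parentheses; open circles are bounds, black bars list medians and dashed lines 2-fold. The medians run from -0.65 for the NRF2 targets to 0.25 for ATF4 targets.

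The sorted cells carried monocyte markers on both arrays. All 13 of the 14 listed with a probe set were above the floor, with a median difference of 0.12. None was 1.5-fold lower, and 2 were at least 1.5-fold higher, F13a1 by 1.06 and Fcgr1 by 0.88. Ly6c2, the gate antigen, was at 9.06 on the WT array against 9.36 on the Nlrp6-/- array, and Itgam (CD11b) at 8.46 and 8.25. The excluded antigens were low but above the floor on both arrays, Cd3e at 4.21 and 3.98 and Ly6g at 3.32 and 3.58. Other listed CD3 chains went the other way from Cd3e, Cd3d at 4.52 and 4.99 and Cd3g at 3.33 and 3.53. Nlrp6 was below the floor on both arrays, at 2.32 and 2.67, so its probe set gives no check of the genotype. Linear levels summed over all listed markers with a probe set were 7659 in WT and 7515 in Nlrp6-/- for monocytes, and 1313 and 1228 for macrophages. They were 352 and 764 for the colon epithelium, 942 and 1618 for B and plasma cells, 742 and 1332 for stroma and endothelium, 663 and 841 for neutrophils, and 126 and 175 for T and NK cells. At least 1.5-fold higher in Nlrp6-/- were 9 of 14 measured epithelial markers, 4 of 7 B and plasma and 4 of 13 stromal. The same held for 3 of 7 neutrophil, 2 of 7 T and NK, 2 of 13 monocyte and 0 of 8 macrophage markers. Of all measured genes, 6.21% were that much higher. Epithelial markers short of 1.5-fold included Muc2 at 0.11, Tff3 at 0.15, Car1 at 0.15 and Cldn3 at -0.01. Among the epithelial ones, Krt20 and Slc26a3 were below the floor on both arrays. Of 14 neutrophil markers, 7 were below it on both arrays, among them Ngp, Ltf, Camp, Elane and Mpo. Of the 7 measured, 5 were higher and 2 lower, Csf3r at 8.25 and 8.20 and Mmp8 at 7.09 and 6.92. The 3 neutrophil markers that were at least 1.5-fold higher were also at least 2-fold higher, S100a8 by 1.16, S100a9 by 1.03 and Retnlg by a bound of 1.95. Which cells gave the signal of these 3 genes was not tested. The part of these other cells in the lower NRF2 target levels was not tested, and in sorted bulk RNA fewer cells with high NRF2 targets and less of their RNA per cell cannot be told apart.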

How the data were processed

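RNA of sorted colon monocytes was hybridised to Mouse Gene 2.1 ST arrays, 1 per genotype; the genotype label set the groups. Per the labels' protocols, 10 ng of RNA was amplified to cDNA, and the authors computed RMA values with the oligo package in R 2.15.1. The deposited table holds log2 levels for 41345 probe sets, whose median was 2.87 for WT and 2.84 for Nlrp6-/-. RMA equalises the arrays' distributions, so a shift of all transcripts cannot be seen. The set of arrays normalised together is not stated in the labels.

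The platform annotation gave 1 symbol to 23525 probe sets, several to 1810 and none to 16010. The probe set with the highest mean stood for its gene. The detection floor was set per array at the 95th percentile over 1406 olfactory and vomeronasal receptor probe sets. Where 1 array was below its floor, the difference was taken to that floor and called a bound. Precision is limited by the number of arrays, and nothing was tested. Promoters and their build came from a RefSeq table, searched on both strands. Scripts ran in Python 3.11.15 and were tested on simulated data.

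The members and all gene lists were chosen with earlier results of these data known. Named were all members and measured NRF2 regulators, up to 4 genes with the largest difference per related list, and the gate antigens and Nlrp6. Marker genes named other than the gate antigens were chosen after their values were seen. Alternatives covered the floor, normalisation, choice of probe set, bounds, fold threshold and motif.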

Additional observations from a re-analysis of the deposited data

How the results depend on the processing

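No paired analysis was possible because each genotype had 1 array. An alternative was counted as moving a difference or median if it shifted it by more than the SD of the receptor genes' differences, 0.19. Most receptor genes lay below the floor, so this SD is a convention and not the spread of expressed genes. All 9 measured members stayed lower in Nlrp6-/- under the 7 alternatives of floor, normalisation, probe set and bounds. Of 63 member differences recomputed, 62 stayed within that SD, and the exception was Nqo1 with the stricter floor, at a bound of -0.18. Many of the 63 could not move. All 9 members lay above both floors, so dropping the floor or the bounds changed none. The mean of probe sets could change only Slc7a11, and subtracting the median shifted every gene alike. The 62 is therefore no measure of how firm the differences are. The count of 2-fold lower members was 2 with that floor and with the median difference subtracted, where Nqo1 was at -0.99. The member median ranged from -0.81, when the mean replaced it, to -0.63. With the 1.5-fold threshold 6 members were lower, and with the 3-fold threshold 0, against 291 and 0 of all measured genes. With the floor at the 99th percentile, 4954 genes were measured, the median of the NRF2 regulators was -0.38 and that of the other NRF2 targets -0.45, since dimmer members of both lists dropped out. The other 52 of 54 list medians stayed within the SD. With TGANTCA as the motif 2 member genes had a promoter match, and with TGANNNNGC 5, where 45% of all genes had one. No value reversed. With 1 array per genotype, differences between mice cannot be separated from the genotype.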

Other observations

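Several detoxifying genes of the NRF2 pathway gave no signal above the floor on either array: Ephx1, Pir, Akr1b8 and Nqo2 among the other targets, Me1 among NADPH suppliers, Gpx2, Gsta3 and Gstk1 among users of glutathione, and Txnrd2 and Txnrd3, the other thioredoxin reductases. Abcc2, Abcc3, Abcc6, Abcc8, Abcc10 and Abcc12 were below it too, as were Cth and Cbs, the enzymes that make cysteine from methionine. These genes were named after their values were seen.

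The antioxidant response element core TGACNNNGC was also counted in promoter windows of the related lists. It was present in 4 of 12 genes with an entry among the NRF2 regulators, 3 of 9 in NADPH supply, 4 of 14 among the other NRF2 targets, 3 of 15 among ATF4 targets, 4 of 23 among users of glutathione, 2 of 7 in glutathione synthesis and cysteine supply, 1 of 3 in superoxide and peroxide removal, 3 of 6 among Abcc transporters and 0 of 11 in the thioredoxin and peroxiredoxin list, against 14% of all genes in the table. These are counts of letters, with no test.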
